A study of Mus musculus with 10 samples.

Results

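A set of 10 genes for enzymes that modify or cross-link collagen was taken by gene symbol from the 17274 genes of the deposited expression table, and all 10 were found. They are the prolyl 4-hydroxylase alpha subunits P4ha1, P4ha2 and P4ha3, the lysyl hydroxylases Plod1, Plod2 and Plod3, and the lysyl oxidases Lox, Loxl1, Loxl2 and Loxl3. They were compared between 5 liver samples given an AAV that encodes miR-181d-5p and 5 given a control AAV. P4ha3 was too low to be tested. None of the 9 tested genes passed the test adjusted over all genes, so every difference below is given as values. P4ha1 had the smallest p of the enzymes, at 66.8% of its control mean, and its paralogue P4ha2 was at 103.7%. Of the 4 lysyl oxidases, all had lower means in AAV-miR-181d-5p livers, and Plod1 and Plod3 were within 10% of their control means.

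Collagen chains are modified inside the endoplasmic reticulum before they fold into a triple helix. Prolyl 4-hydroxylases use iron, ascorbate, oxygen and 2-oxoglutarate to make the hydroxyproline that keeps the helix stable at body temperature, and each catalytic alpha subunit works in a tetramer with P4hb, the protein disulphide isomerase. Lysyl hydroxylases use the same cofactors to make hydroxylysine. Outside the cell, the copper-dependent lysyl oxidases turn lysine and hydroxylysine into aldehydes that cross-link collagen and elastin, and in fibrotic liver these cross-links stiffen the scar.

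All 10 samples are whole liver of wild-type mice with nonalcoholic steatohepatitis (NASH), a fatty and inflamed liver that scars. The disease was brought on in both groups by CDAHFD, a high-fat diet with defined amino acids that is deficient in choline. Adeno-associated virus (AAV), a vector that carries a gene into cells, was injected into a vein, as AAV-miR-181d-5p in 5 samples and as control AAV in the other 5. Gene expression was measured by RNA-seq of polyadenylated RNA and deposited as FPKM, which scales the reads of a gene by its length and by the size of the library. Strain, sex, age, vector dose, promoter, serotype and time of harvest are not given in the sources used here. The labels tie no sample to its own animal, so the p-values rest on the spread among these 10 samples, which may be partly technical. In bulk liver, fewer cells of a type and less RNA per cell cannot be told apart.

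The vector's product is a microRNA of the miR-181 family. Its mature sequence (RefSeq, GRCm38.p6, 23 bases, chr8:84178759-84178781, minus strand) is printed 5′ to 3′ because the search for matching sites uses its seed, bases 2 to 8, which is in capitals:
mmu-miR-181d-5p: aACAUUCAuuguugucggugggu
The other mouse members, miR-181a-5p, miR-181b-5p and miR-181c-5p, carry the same seed. The table lists no miR-181 gene, so how much of the microRNA each liver held was not measured here.

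A gene was tested where its mean over the 10 livers was at least 0.5 FPKM, which held for 12053 genes and for 9 of the 10 enzymes; P4ha3 lay below. Limma was fitted to log2(FPKM + 1), so a log2 change below is AAV-miR-181d-5p minus control on that scale, which understates the change of genes near 1 FPKM. Library totals recovered from the FPKM values were 18985912 to 20657019 reads in AAV-miR-181d-5p livers and 19118235 to 20337358 in control livers. Across all genes, 0 of 12053 (0%) passed an adjusted p of 0.05, and the smallest adjusted p was 0.142. With no adjustment, 607 genes were higher and 1161 lower in AAV-miR-181d-5p livers at a p under 0.05. Rescaling each FPKM column to a common sum gave 347 higher and 1266 lower, and quantile normalization gave 997 higher and 942 lower. The median log2 change of all tested genes was -0.02.

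Of the 9 tested enzymes, 8 had a log2 change below 0, against 54.5% of all tested genes, and their median was -0.27. At an unadjusted p under 0.05, limma gave P4ha1, Plod2, Lox, Loxl2 and Loxl3, which is 5 of 9 and all lower, where the share of all tested genes that were lower at that p was 9.63%. The enzymes were chosen with earlier results of these data known, and some vary together, such as Lox and Loxl1. These shares are therefore a description and not a test. In P4ha1, Loxl2 and Loxl3 every liver given the microRNA vector was below every control liver. Such separation downward was found in 1.45% of all tested genes. With FPKM rescaled to a common sum in each liver, P4ha1 and Loxl3 were separated and Loxl2 was not. These 3 genes kept an unadjusted p under 0.05 in all 21 alternative fits. Plod2 was over that p with the replicate number as a block (0.0726), after quantile normalization (0.0637) and without control liver 2 (0.0592). Without AAV-miR-181d-5p liver 4, or without control liver 4, P4ha1, Loxl2 and Loxl3 were the 3 enzymes with such a p.

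By abundance per length, averaged over the 10 livers, the order was Plod1, Plod3, P4ha1, Loxl1, Loxl2, P4ha2, Lox, Loxl3, Plod2 and P4ha3. This order rests on the gene lengths behind the FPKM. Recovered from the values, these were 2345 bases for P4ha2, 9445 for Plod2 and 3252 for Plod1. Merged GENCODE exons of these genes cover 6239, 5392 and 6765 bases, so other lengths could change the order. The ranges over the 10 livers did not overlap between Plod1 and Plod3, or between Plod2 and P4ha3. Within a liver, Plod3 was above P4ha1, Loxl1 above Loxl2, Lox above Loxl3 and Loxl3 above Plod2 in 10 of 10, although their ranges overlapped. P4ha1 was above Loxl1 in 9 of 10 livers. The order of Loxl2, P4ha2 and Lox, with overall means of 4.10, 3.93 and 3.46 FPKM, changed between livers: Loxl2 was above P4ha2 in 7 of 10, and P4ha2 above Lox in 8 of 10.

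**Figure D1:**
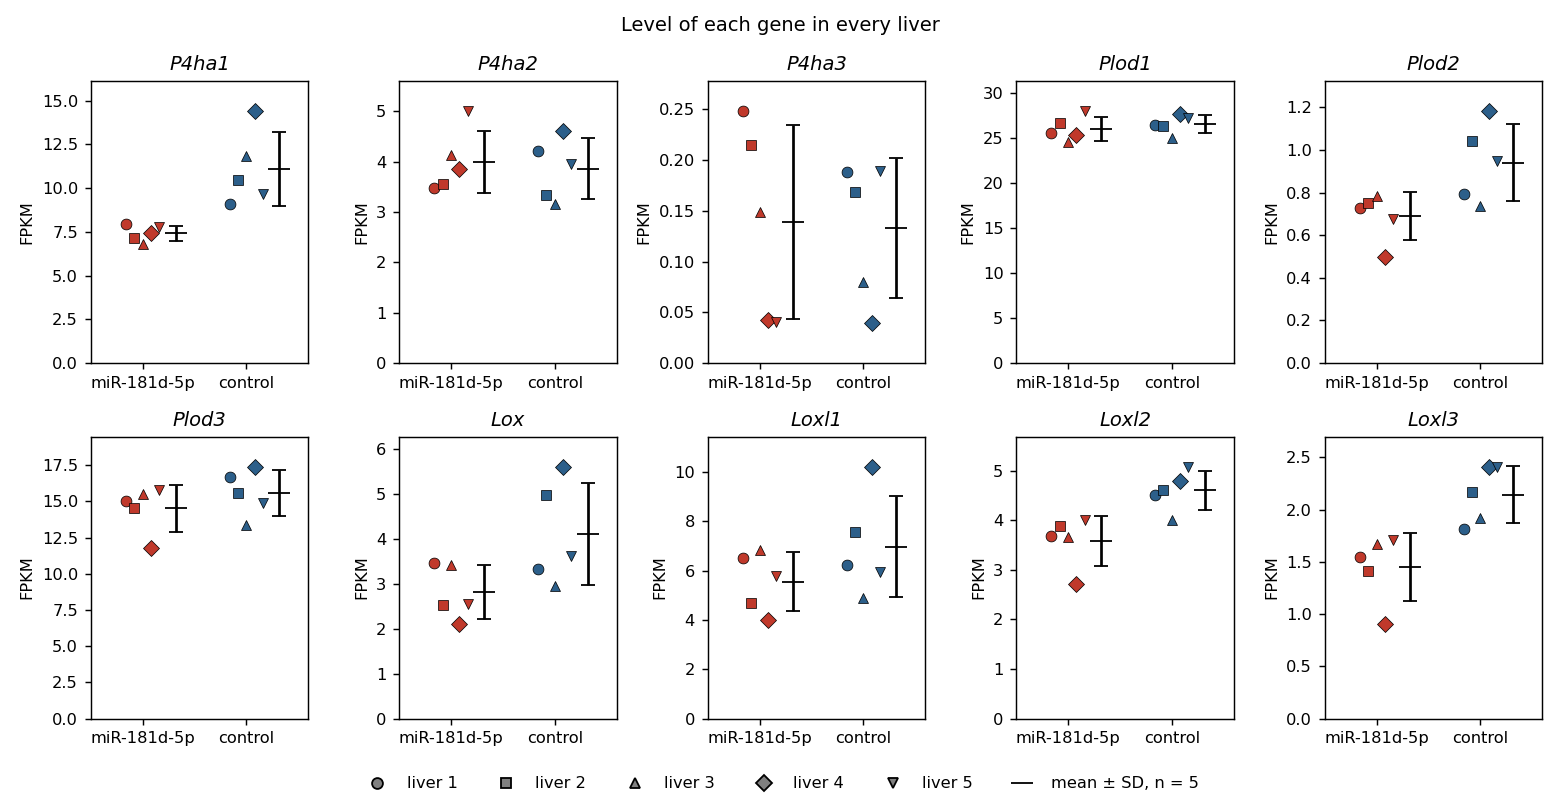
FPKM of each enzyme gene in every liver, with AAV-miR-181d-5p livers on the left and control livers on the right of each panel, each axis starting at 0 and the bars giving mean ± SD (n = 5 each). Symbols give the liver number within its group, and the same number in the 2 groups does not mean a shared animal. In these deposited values P4ha1, Loxl2 and Loxl3 have no overlap between groups (Loxl2 overlaps after rescaling to a common sum), while the P4ha2, Plod1 and Plod3 points intermix.

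P4ha1 encodes the most widely expressed catalytic subunit of collagen prolyl 4-hydroxylase. It lies at chr10:59323296-59373304 (mm10, plus strand). Its values were 7.92, 7.13, 6.81, 7.42 and 7.76 FPKM in AAV-miR-181d-5p livers 1 to 5, against 9.11, 10.5, 11.8, 14.4 and 9.63 FPKM in control livers 1 to 5. The AAV-miR-181d-5p livers lay close together and all below the lowest control liver, and the control livers were spread, with liver 4 the highest. The means were 7.41 ± 0.452 FPKM in AAV-miR-181d-5p livers and 11.1 ± 2.11 FPKM in control livers (SD, n = 5 each), and the coefficient of variation was 6.10% in AAV-miR-181d-5p livers and 19.1% in control livers. The log2 change was -0.51 (SE 0.11, 95% interval -0.74 to -0.28), with an unadjusted p of 0.000385 by limma. That was the 17th smallest p of the 12053, and the adjusted p of 0.221 did not pass. The value rests on 2990 reads in the AAV-miR-181d-5p group and 4491 in the control group.

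The call on P4ha1 depended on the fit. Over the 21 alternatives its log2 change ran from -0.64 to -0.42 and its adjusted p from 0.0449 to 0.501, the highest without AAV-miR-181d-5p liver 4. It passed in 1 of them, limma voom with sample quality weights and median-of-ratios scaling on reads recovered from the FPKM, where the adjusted p was 0.0449. With the same weights and no such scaling it was 0.0782. Both of these fits were chosen after seeing the data.

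P4ha2 encodes the second catalytic alpha subunit, which pairs with the same P4hb. It lies at chr11:54100095-54131665 (plus strand). Its values were 3.47, 3.55, 4.13, 3.85 and 5.001 FPKM in AAV-miR-181d-5p livers, against 4.21, 3.35, 3.16, 4.61 and 3.96 FPKM in control livers. The groups overlapped throughout, with the highest value in AAV-miR-181d-5p liver 5 and the lowest in control liver 3. Means were 4.002 ± 0.617 FPKM in AAV-miR-181d-5p livers and 3.86 ± 0.604 FPKM in control livers. The log2 change was 0.04 (95% interval -0.19 to 0.27) and the adjusted p 0.869 by limma, so a difference of up to about these bounds in either direction cannot be told from none. Its sign turned without AAV-miR-181d-5p liver 5, at -0.02, and without control liver 3, at -0.01.

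The ratio of P4ha1 to P4ha2, in FPKM, averaged 1.88 ± 0.292 in AAV-miR-181d-5p livers and 2.92 ± 0.627 in control livers. Its ranges, 1.55 to 2.28 in AAV-miR-181d-5p livers and 2.16 to 3.75 in control livers, overlapped through AAV-miR-181d-5p liver 1 and control liver 1. The log2 ratio differed by -0.62 between groups, and this difference was not tested. The level of the ratio depends on the gene lengths behind the FPKM, while its difference between groups does not. P4ha3, the third alpha subunit (chr7:100285520-100319699, plus strand), was close to absent in both groups. It was read 2 to 12 times per liver in AAV-miR-181d-5p livers and 2 to 9 times in control livers, and was not tested. Its means were 0.139 ± 0.0959 FPKM in AAV-miR-181d-5p livers and 0.133 ± 0.0689 FPKM in control livers, too few reads for a comparison. The summed FPKM of the 3 subunits was 10.9 to 12.8 in AAV-miR-181d-5p livers and 13.5 to 19.0 in control livers, without overlap. This sum is led by P4ha1, and P4ha2 and P4ha3 each overlapped between groups.

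The promoters of P4ha1 and P4ha2 are set out because P4ha1 separated the groups and P4ha2 did not, although both are known hypoxia-inducible genes. The core letters bound by the hypoxia-inducible factors, ACGTG and GCGTG, were searched on both strands in the 300 bases from 250 before to 50 after each gene's start (RefSeq, GRCm38.p6). Matches are in capitals and read as CACGT or CACGC where they lie on the other strand. The RefSeq start used for P4ha2 differs from its GENCODE start, chr11:54100095, and its window lies inside the gene as GENCODE places it. The P4ha1 window brackets its GENCODE start, chr10:59323296, so the match counts of these genes come from unlike windows. The windows are chr10:59323046-59323345 and chr11:54100674-54100973, both on the plus strand:
P4ha1: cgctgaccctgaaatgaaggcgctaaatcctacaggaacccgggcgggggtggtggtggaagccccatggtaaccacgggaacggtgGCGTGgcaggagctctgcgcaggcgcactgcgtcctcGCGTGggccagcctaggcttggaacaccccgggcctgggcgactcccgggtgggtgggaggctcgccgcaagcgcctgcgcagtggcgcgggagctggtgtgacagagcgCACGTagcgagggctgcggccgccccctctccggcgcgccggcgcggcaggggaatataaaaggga
P4ha2: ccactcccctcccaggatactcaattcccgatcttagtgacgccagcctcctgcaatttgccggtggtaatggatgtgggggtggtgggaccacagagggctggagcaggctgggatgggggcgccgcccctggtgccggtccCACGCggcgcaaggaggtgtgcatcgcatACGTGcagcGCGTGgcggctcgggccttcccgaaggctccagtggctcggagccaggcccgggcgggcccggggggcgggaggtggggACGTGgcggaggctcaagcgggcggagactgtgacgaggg
P4ha1 had 3 matches, 1 of them ACGTG and 2 GCGTG. P4ha2 had 4, with 2 of each kind. Of 9659 promoters of tested genes, 62.7% held at least 1 match, with a median of 1. Promoters of 5 of the 10 enzymes were matched in the table. Plod3 had 4 matches, Plod1 had 2 and P4ha3 had 0. A match describes letters only. P4ha1 and P4ha2 both hold more than the median, in unlike windows that are each 70.3% G and C. This base content was not compared with that of the 9659 promoters.

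Plod1 encodes the lysyl hydroxylase that acts mainly on the helical part of collagen chains. It lies at chr4:147909753-147936767 (minus strand). Its values were 25.5, 26.7, 24.6, 25.4 and 28.0 FPKM in AAV-miR-181d-5p livers, against 26.5, 26.3, 25.0, 27.6 and 27.2 FPKM in control livers. The groups intermixed, and the highest value of all was in AAV-miR-181d-5p liver 5. The means were 26.0 ± 1.33 FPKM in AAV-miR-181d-5p livers and 26.5 ± 1.01 FPKM in control livers, and the log2 change of -0.03 had a 95% interval from -0.16 to 0.10 (adjusted p 0.853, limma). It had the highest mean FPKM of the enzymes, was read at least 1516 times in each liver, and was the one with the narrowest interval.

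Plod2 encodes the lysyl hydroxylase that acts on telopeptides, the ends of the chains outside the helix, and so on the lysines that form the most stable cross-links. It lies at chr9:92542223-92608428 (plus strand). Its values were 0.727, 0.753, 0.786, 0.5001 and 0.677 FPKM in AAV-miR-181d-5p livers, against 0.794, 1.04, 0.736, 1.182 and 0.950 FPKM in control livers. Control liver 3 alone lay among the AAV-miR-181d-5p livers, and without it the groups did not overlap. Means were 0.689 ± 0.113 FPKM in AAV-miR-181d-5p livers and 0.941 ± 0.181 FPKM in control livers, 73.2% of control. Limma gave a log2 change of -0.20 (SE 0.08, 95% interval -0.37 to -0.02), an unadjusted p of 0.0288 and an adjusted p of 0.307. At this low level the added 1 FPKM shrinks the change: by voom on recovered reads it was -0.44.

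Plod3, which hydroxylates lysine and also adds the sugars that hydroxylysine carries, lies at chr5:136987019-136996648 (plus strand). Its values were 15.0, 14.6, 15.5, 11.8 and 15.8 FPKM in AAV-miR-181d-5p livers, against 16.7, 15.6, 13.3, 17.4 and 14.9 FPKM in control livers. The groups overlapped, and AAV-miR-181d-5p liver 4 was the lowest of all 10. Means were 14.5 ± 1.61 FPKM in AAV-miR-181d-5p livers and 15.6 ± 1.58 FPKM in control livers, with a log2 change of -0.10 (95% interval -0.30 to 0.10) and an adjusted p of 0.631 by limma. Plod3 shares 529 exonic bases on opposite strands with Znhit1, at 44.7 ± 2.66 FPKM in AAV-miR-181d-5p livers and 42.5 ± 3.86 FPKM in control livers. The strand setting of the counting is not given, and some reads of either gene may belong to the other.

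Relative to Plod1, Plod2 was at 0.0265 ± 0.00471 in AAV-miR-181d-5p livers and 0.0354 ± 0.00583 in control livers, a difference of -0.42 in the log2 ratio. The groups overlapped in this ratio too, and its level also depends on the gene lengths behind the FPKM. The summed FPKM of the 3 lysyl hydroxylases was 41.2 ± 2.44 in AAV-miR-181d-5p livers and 43.0 ± 2.58 in control livers, a sum led by Plod1.

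Lox encodes the founding lysyl oxidase, which is secreted as a proenzyme and cut by Bmp1. It lies at chr18:52516067-52529867 (minus strand). Its values were 3.46, 2.54, 3.42, 2.11 and 2.55 FPKM in AAV-miR-181d-5p livers, against 3.34, 4.99, 2.97, 5.61 and 3.63 FPKM in control livers. Control livers 1 and 3 lay within the range of the AAV-miR-181d-5p livers, and control livers 2, 4 and 5 lay above it. The means were 2.82 ± 0.598 FPKM in AAV-miR-181d-5p livers and 4.11 ± 1.14 FPKM in control livers, 68.6% of control. The log2 change was -0.41 (SE 0.15, 95% interval -0.73 to -0.08), with an unadjusted p of 0.0183 and an adjusted p of 0.272 by limma. The unadjusted p was under 0.05 in 19 of 21 alternatives, and 0.0521 at most, without control liver 4.

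Loxl1, which is needed to keep elastic fibres in adult tissues of mice, lies at chr9:58287738-58313186 (minus strand). Its values were 6.49, 4.70, 6.83, 3.99 and 5.78 FPKM in AAV-miR-181d-5p livers, against 6.24, 7.58, 4.90, 10.2 and 5.95 FPKM in control livers. The groups overlapped, and the highest value was that of control liver 4. The means were 5.56 ± 1.197 FPKM in AAV-miR-181d-5p livers and 6.98 ± 2.04 FPKM in control livers, with a log2 change of -0.27 (95% interval -0.63 to 0.10) and an adjusted p of 0.461 by limma. Leaving out control liver 4 gave a log2 change of -0.14 with an adjusted p of 0.748.

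Loxl2, which cross-links collagen, including the collagen IV of basement membranes, lies at chr14:69609068-69695834 (plus strand). Its values were 3.69, 3.88, 3.66, 2.72 and 4.003 FPKM in AAV-miR-181d-5p livers, against 4.51, 4.61, 4.01, 4.7996 and 5.08 FPKM in control livers. The groups did not overlap in the deposited values, but AAV-miR-181d-5p liver 5 and control liver 3 all but met. Rescaled to a common sum, these livers had 4.014 FPKM in AAV-miR-181d-5p liver 5 and 3.93 FPKM in control liver 3, so the groups overlapped. Means were 3.59 ± 0.506 FPKM in AAV-miR-181d-5p livers and 4.60 ± 0.396 FPKM in control livers, 78.0% of control. Limma gave a log2 change of -0.29 (SE 0.09, 95% interval -0.49 to -0.09), an unadjusted p of 0.00782 and an adjusted p of 0.241.

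Loxl3, a lysyl oxidase of the same subgroup as Loxl2, lies at chr6:83034173-83052562 (plus strand). Its values were 1.55, 1.42, 1.67, 0.903 and 1.71 FPKM in AAV-miR-181d-5p livers, against 1.82, 2.17, 1.92, 2.40 and 2.41 FPKM in control livers. The groups did not overlap, and AAV-miR-181d-5p liver 4 was far below the other livers. The means were 1.45 ± 0.326 FPKM in AAV-miR-181d-5p livers and 2.14 ± 0.273 FPKM in control livers, 67.6% of control. The log2 change was -0.37 (SE 0.10, 95% interval -0.59 to -0.14), with an unadjusted p of 0.00374 and an adjusted p of 0.235 by limma. By voom it was -0.59. Loxl3 shares 535 exonic bases on opposite strands with Htra2, which was at 14.6 ± 0.993 FPKM in AAV-miR-181d-5p livers and 13.6 ± 2.27 FPKM in control livers.

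The fifth lysyl oxidase, Loxl4, is not among the 10 genes. It was at 0.755 ± 0.155 FPKM in AAV-miR-181d-5p livers and 0.885 ± 0.166 FPKM in control livers, with a log2 change of -0.10 and an adjusted p of 0.570 by limma. The summed FPKM of Lox, Loxl1, Loxl2 and Loxl3 was 13.4 ± 2.38 in AAV-miR-181d-5p livers, from 9.73 to 15.6, and 17.8 ± 3.53 in control livers, from 13.8 to 23.0. Median log2 changes were -0.33 for the lysyl oxidases, -0.10 for the lysyl hydroxylases and -0.23 for the 2 tested prolyl 4-hydroxylase subunits.

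**Figure D2:**
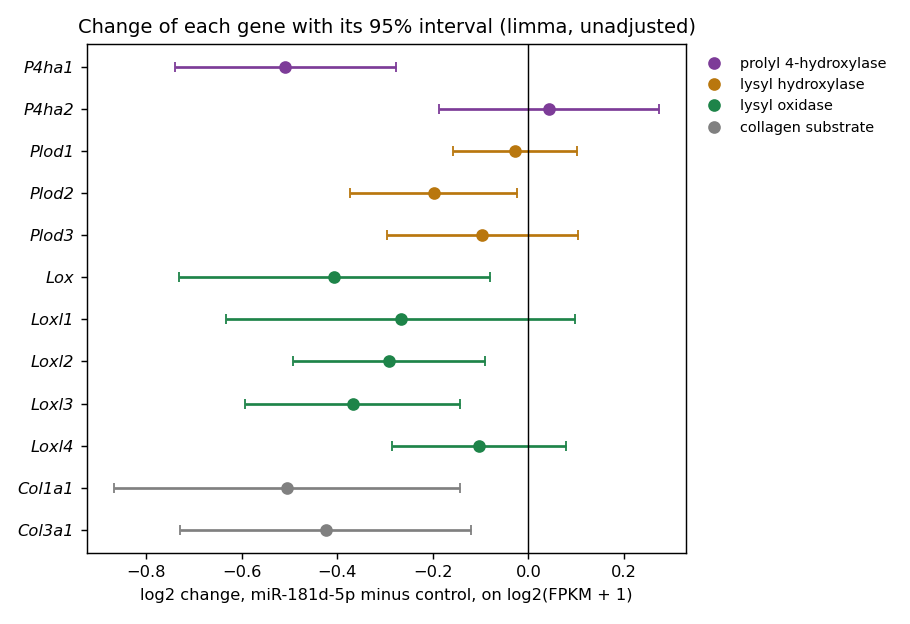
Log2 change (AAV-miR-181d-5p minus control, on log2(FPKM + 1)) of the 9 tested enzymes, of Loxl4 and of the collagens Col1a1 and Col3a1. Points are limma estimates and bars their unadjusted 95% intervals, coloured by enzyme family. The intervals of P4ha1, Plod2, Lox, Loxl2 and Loxl3 lie below 0, and those of P4ha2, Plod1, Plod3, Loxl1 and Loxl4 include it.

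A site for the seed was sought in the longest annotated 3′ untranslated region of each enzyme (GENCODE vM21, mm10). The letters searched were TGAATGTA (8mer), TGAATGT (7mer-m8) and GAATGTA (7mer-A1). Lox was the only enzyme of the 10 with a match. It was an 8mer in exon 7 of 7, starting at base 3036 of a 3160-base region. The regions of P4ha1 (2230 bases), Loxl2 (2715 bases) and Loxl3 (1689 bases), the 3 genes whose groups did not overlap in the deposited values, held none of these letters. Of 11770 tested genes with an annotated region, 23.0% held a match and 5.93% an 8mer, and the median length of these regions was 1114 bases. Whether the microRNA acts on any of the enzymes was not tested. The count of 1 enzyme was the same with 8mer and 7mer-m8 sites only and with all annotated 3′ untranslated regions of each gene.

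The enzymes did not follow 1 pattern from liver to liver. AAV-miR-181d-5p liver 4 was the lowest of all 10 livers for 6 of the 9 tested enzymes, and control liver 4 was the highest for 5. AAV-miR-181d-5p liver 4 was the lowest of its group for Plod2, Plod3 and all 4 lysyl oxidases. It lay in the middle of its group for P4ha1, at 7.42 FPKM, and for P4ha2, at 3.85 FPKM. For Plod1, liver 3 was the lowest of that group, at 24.6 FPKM, with liver 4 at 25.4 FPKM. Within the control group, liver 3 was the lowest for 7 of the 9 enzymes, but for P4ha1 it was the second highest.

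**Figure D3:**
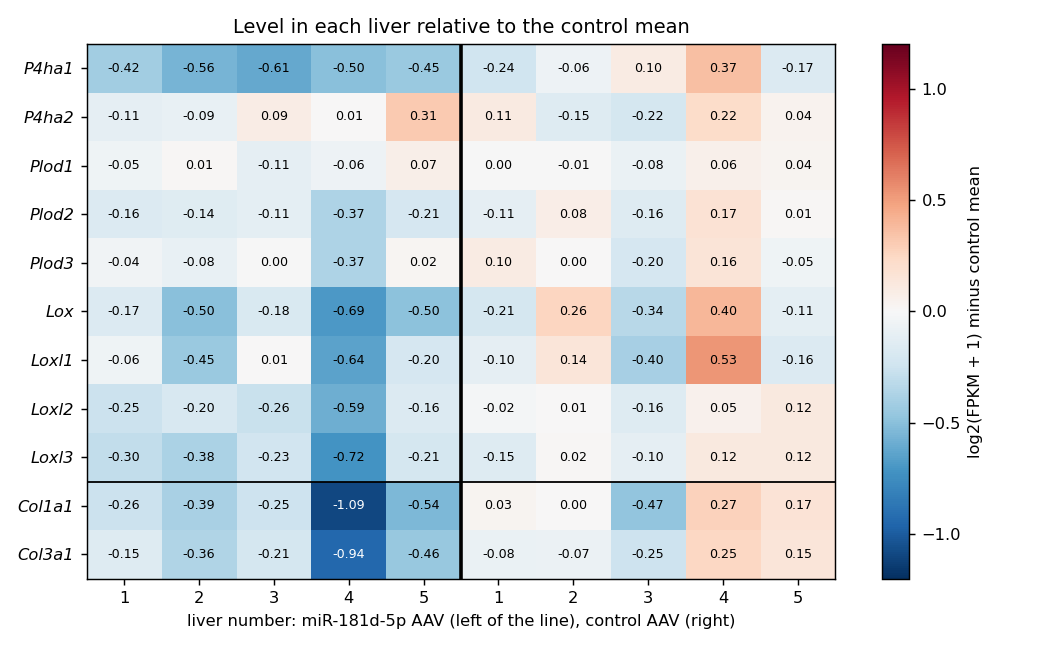
Level of each tested enzyme, and of Col1a1 and Col3a1 below the line, in every liver as log2(FPKM + 1) minus the control mean, with AAV-miR-181d-5p livers 1 to 5 left and control livers 1 to 5 right. Blue is below and red above the control mean. P4ha1 is blue in all 5 AAV-miR-181d-5p livers at similar depth, -0.42 to -0.61, while Lox, Loxl1, Loxl2, Loxl3 and the collagens are deepest in AAV-miR-181d-5p liver 4.

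The likeness of patterns was measured by Pearson's r of log2(FPKM + 1) over the 10 livers after subtracting each group's mean, among genes averaging 1 FPKM or more. These values describe livers that share diet and processing, and carry no p. Nearest to Lox were Cyth3 (r = 0.98), Ubash3b (r = 0.98) and Ift80 (r = 0.97), and Loxl1 came 14th of 10786 genes with r = 0.94. Nearest to Plod2 were Serpine2 (r = 0.99), Tmem106a (r = 0.98) and Ehd4 (r = 0.97), and Lox came 48th with r = 0.90. Nearest to P4ha1 were Pfn2 (r = 0.94), Bcl2l1 (r = 0.92) and Ldb1 (r = 0.92). The r of P4ha1 was 0.41 with Lox, 0.34 with Plod2, 0.15 with P4ha2 and -0.05 with Loxl2. P4ha1 varied more among control livers (coefficient of variation 19.1%) than among AAV-miR-181d-5p livers (6.10%), so its r values rest more on the control livers.

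**Figure D4:**
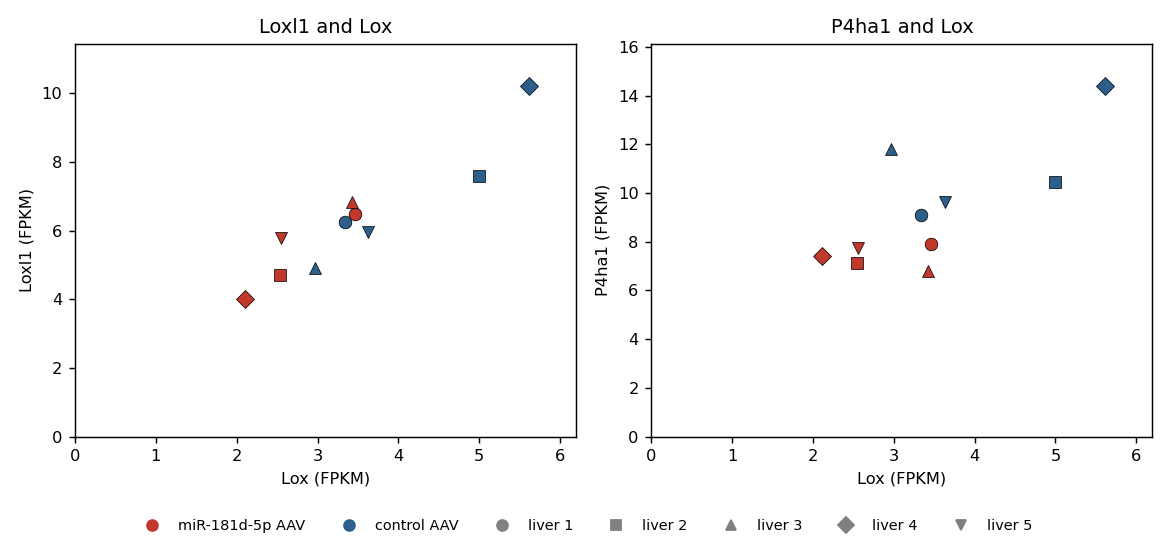
Loxl1 against Lox (left) and P4ha1 against Lox (right), in FPKM, for each of the 10 livers, with red for AAV-miR-181d-5p and blue for control and the symbol giving the liver number within its group. Loxl1 goes up with Lox across both groups, while P4ha1 stays between 6.81 and 7.92 FPKM in the AAV-miR-181d-5p livers, where Lox ranges from 2.11 to 3.46 FPKM. In control livers P4ha1 ranges from 9.11 to 14.4 FPKM and Lox from 2.97 to 5.61 FPKM, both highest in liver 4.

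The collagens these enzymes act on, and further lists, were set beside them. The counts of each list are read beside the shares of all tested genes. Of all tested genes, 54.5% had a log2 change below 0 and 9.63% were lower at an unadjusted p under 0.05. In 1.45% the groups separated downward. Of the 7 tested fibrillar collagen genes, 6 were lower and 1 higher, with a median log2 change of -0.42, and 5 were lower at an unadjusted p under 0.05. Col1a1, which encodes the main chain of collagen I, was at 42.3 ± 9.19 FPKM in AAV-miR-181d-5p livers and 60.0 ± 11.1 FPKM in control livers, a log2 change of -0.50 with an adjusted p of 0.250 by limma. Col1a2, the second chain of collagen I, was at 49.7 ± 9.53 FPKM in AAV-miR-181d-5p livers and 70.3 ± 11.03 FPKM in control livers. Col3a1, the chain of collagen III, was at 96.8 ± 19.2 FPKM in AAV-miR-181d-5p livers and 128.9 ± 17.8 FPKM in control livers. Col5a1 and Col5a2, chains of the collagen V that starts fibrils, had log2 changes of -0.36 and -0.42. All 11 tested basement membrane and other collagens were lower, with a median of -0.41 and 9 at an unadjusted p under 0.05. Col4a1, a chain of collagen IV, was at 36.5 ± 2.59 FPKM in AAV-miR-181d-5p livers and 50.3 ± 5.07 FPKM in control livers without overlap. Col14a1, a fibril-associated collagen, was at 22.045 ± 2.004 FPKM in AAV-miR-181d-5p livers and 29.7 ± 3.09 FPKM in control livers, also without overlap. The adjusted p was 0.167 for Col4a1 and 0.221 for Col14a1 by limma.

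Divided by Col1a1 in the same liver, 6 of the 9 enzymes had a higher and 3 a lower mean log2 ratio in AAV-miR-181d-5p livers, and in 0 of 9 did the groups separate. The difference was 0.57 for P4ha2, 0.49 for Plod1 and 0.41 for Plod3. For P4ha1, Plod2, Lox and Loxl3 it lay between -0.08 and 0.07. Divided by Col3a1 the differences ran from -0.16 to 0.48, with 5 higher and 4 lower. Col1a1 and Col3a1 are themselves markers of the collagen-making cells, and these ratios were not tested.

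The elastic fibre genes were all lower, 8 of 8 tested, with a median log2 change of -0.33 and 7 at an unadjusted p under 0.05. Fbn1, which encodes the microfibril protein fibrillin-1, was at 2.68 ± 0.505 FPKM in AAV-miR-181d-5p livers and 4.38 ± 1.16 FPKM in control livers, a log2 change of -0.53. Mfap4, a microfibril-associated glycoprotein, also had -0.53, and Fbln5, which brings Loxl1 to elastin, had -0.26. Of the 13 tested genes of procollagen processing and fibril assembly, 12 were lower and 1 higher, with a median of -0.32, 9 lower and 1 higher at an unadjusted p under 0.05. Among them were Bgn, a small proteoglycan, at 128.8 ± 13.3 FPKM in AAV-miR-181d-5p livers and 177.6 ± 28.8 FPKM in control livers, and Fmod, which guides lysyl oxidase on collagen fibrils, at 3.68 ± 0.980 FPKM in AAV-miR-181d-5p livers and 5.35 ± 1.07 FPKM in control livers. Postn, a matricellular protein that assists Lox activation, was at 10.3 ± 0.786 FPKM in AAV-miR-181d-5p livers and 13.2 ± 1.69 FPKM in control livers without overlap. Sparc, a collagen-binding protein, had a log2 change of -0.41. None of these genes passed the adjusted test by limma.

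The remaining enzymes and partners of collagen in the endoplasmic reticulum were more divided. Of 14 tested, 10 were lower and 4 higher, with a median log2 change of -0.10, 3 lower and 1 higher at an unadjusted p under 0.05. P3h2, a prolyl 3-hydroxylase, was at 1.40 ± 0.168 FPKM in AAV-miR-181d-5p livers and 2.13 ± 0.318 FPKM in control livers, without overlap (log2 change -0.38). Serpinh1, the collagen chaperone HSP47, was at 29.2 ± 4.99 FPKM in AAV-miR-181d-5p livers and 39.4 ± 8.47 FPKM in control livers. Crtap, a partner of prolyl 3-hydroxylase 1, was at 14.5 ± 1.49 FPKM in AAV-miR-181d-5p livers and 16.9 ± 1.22 FPKM in control livers. P4hb, the partner of the P4ha subunits and a general disulphide isomerase of all secretory cells, differed in the other direction. It was at 879.7 ± 63.3 FPKM in AAV-miR-181d-5p livers and 745.9 ± 96.6 FPKM in control livers, 117.9% of control, with a log2 change of 0.24 and an adjusted p of 0.298 by limma.

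P4ha1, P4ha2, Plod2, Lox and Loxl2 are known targets of the hypoxia-inducible factors, so other hypoxia-inducible genes were examined. All 20 were tested, 13 lower and 7 higher, with a median log2 change of -0.10, 4 lower and 1 higher at an unadjusted p under 0.05. Of all tested genes, 54.5% had a log2 change below 0 and 9.63% were lower at that p. Pfkfb3, which drives glycolysis, was at 3.83 ± 0.510 FPKM in AAV-miR-181d-5p livers and 5.53 ± 0.629 FPKM in control livers (log2 change -0.44). Bhlhe40, a transcriptional repressor, was at 38.0 ± 5.85 FPKM in AAV-miR-181d-5p livers and 53.1 ± 11.9 FPKM in control livers. The histone demethylase Kdm3a was at 3.88 ± 0.634 FPKM in AAV-miR-181d-5p livers and 5.01 ± 0.659 FPKM in control livers. Ndrg1, a stress-response gene, had a log2 change of -0.27. Of 13 tested 2-oxoglutarate oxygenases with other substrates, 8 were lower and 5 higher, with a median of -0.07, 2 lower and 0 higher at an unadjusted p under 0.05. Kdm6b, a histone demethylase, was at 2.31 ± 0.416 FPKM in AAV-miR-181d-5p livers and 3.33 ± 0.461 FPKM in control livers without overlap, and the others named by p, Jmjd6, Egln2 and Tet3, had log2 changes of -0.22, 0.13 and -0.21.

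Genes that supply ascorbate and iron had a median log2 change of 0.09, with 8 of 10 higher and 2 lower, 1 higher and 0 lower at an unadjusted p under 0.05. Rgn and Gulo act in the making of ascorbate in mouse liver. Rgn was at 347.1 ± 28.1 FPKM in AAV-miR-181d-5p livers and 286.4 ± 35.4 FPKM in control livers (log2 change 0.28), and Gulo at 304.8 ± 15.7 FPKM in AAV-miR-181d-5p livers and 277.4 ± 16.03 FPKM in control livers. The ascorbate transporter Slc23a1 had a log2 change of 0.16 and the transferrin receptor Tfrc one of -0.21. The adjusted p of Rgn was 0.250 by limma.

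**Figure D5:**
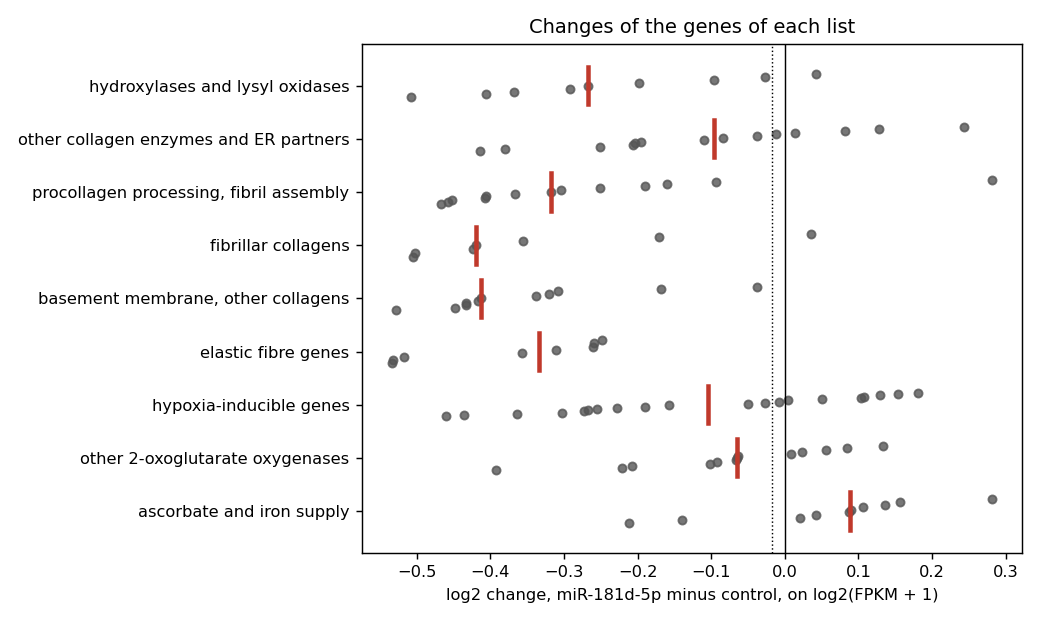
Log2 change of every tested gene (points) and the median (red bar) of the 9 tested enzymes and of each list of collagen enzymes, substrates, hypoxia-inducible genes, other oxygenases and cofactor genes. The dotted line is the median of all tested genes, -0.02. The 2 collagen lists have the lowest medians, -0.42 and -0.41, and the ascorbate and iron list the highest, 0.09.

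Markers of the liver's cell types are given beside these values. All 6 hepatocyte markers were tested, 2 of them lower, and summed to 32996 to 37615 FPKM in AAV-miR-181d-5p livers and 31348 to 38232 FPKM in control livers. Of the stellate cell and fibroblast markers 8 of 8 were lower (median log2 change -0.31), with sums of 270.8 to 321.6 FPKM in AAV-miR-181d-5p livers and 307.7 to 452.9 FPKM in control livers. Of the myofibroblast markers 6 of 6 were lower (median -0.44). This list contains Col1a1, Col3a1 and Postn, and its sums, 137.2 to 228.5 FPKM in AAV-miR-181d-5p livers and 234.3 to 335.2 FPKM in control livers, did not overlap. Cholangiocyte markers were lower in 6 of 6 (median -0.62), with sums of 117.1 to 382.2 FPKM in AAV-miR-181d-5p livers and 281.0 to 522.1 FPKM in control livers. Macrophage markers were lower in 6 of 7 (median -0.26; 519.6 to 783.6 FPKM in AAV-miR-181d-5p livers, 685.0 to 890.1 FPKM in control livers) and endothelial markers in 5 of 7 (median -0.12; 113.9 to 120.6 FPKM in AAV-miR-181d-5p livers, 115.1 to 132.0 FPKM in control livers). T, B and NK cell markers summed to 3.51 to 4.85 FPKM in AAV-miR-181d-5p livers and 4.08 to 6.76 FPKM in control livers, with 2 of 3 tested lower (median -0.22) and Ms4a1 and Ncr1 under the filter. Muscle, pancreas and fat markers summed to 9.71 to 12.5 FPKM in AAV-miR-181d-5p livers and 7.05 to 11.2 FPKM in control livers, nearly all Cela1, with Ckm, Acta1, Plin1 and Adipoq under the filter. AAV-miR-181d-5p liver 4, the lowest for 6 of the enzymes, had the lowest sum of the stellate cell, myofibroblast, macrophage and cholangiocyte markers alike. Control liver 4, the highest for 5 enzymes, had the highest cholangiocyte sum, but control liver 5 had the highest stellate cell, myofibroblast and macrophage sums. Control liver 3, the lowest control liver for 7 enzymes, had the lowest control sums of myofibroblast, macrophage and cholangiocyte markers. Its stellate cell sum, 358.1 FPKM, was above the 307.7 FPKM of control liver 1. The sums include the markers under the filter. No marker was at 0 in all livers. The part of cell composition in the values of the enzymes was not tested.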

How the data were processed

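RNA-seq of 10 mouse livers was analysed, 5 given AAV-miR-181d-5p and 5 given control AAV. Per the labels' protocols, total RNA (mirVana kit) went into TruSeq Stranded mRNA libraries. The deposited table holds FPKM values computed by the authors, in 10 columns. The tools named are HISAT2 2.2.1, HTSeq 0.13.5, Trimmomatic 0.38, FastQC 0.11.9, DESeq2 1.18.1 and R 3.4.1, with mm10 as the build, per the submitters' processing notes, which give neither role nor order here. The FPKM formula and the strand setting are not given in the sources used here.

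The members and lists were chosen with earlier results of these data known. Column names gave the group and number of each sample. Genes averaging 0.5 FPKM or more over all livers (12053 of 17274) were fitted on log2(FPKM + 1) with limma 3.58.1 in R 4.3.3, with group as the only term, a mean-variance trend, two-sided tests and Benjamini-Hochberg adjustment over all of them. A group SD is over 5 livers. Outside the enzymes, up to 4 genes with the smallest p of each list were named. The marker sums take all markers that have values, also those under the filter. Fitting and recovery were tested on simulated data.

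Whole reads were recovered within 0.002 of a read for 17216 of 17217 genes with any value above 0 (99.994%), and library totals for all 10 livers. They give depths, the gene lengths set beside GENCODE and the voom fits only. The labels give no batch. Alternatives were limma voom on recovered reads, the replicate number as a block, each liver left out in turn, array weights, robust empirical Bayes, rescaling to a common sum, quantile normalization, no filter, a filter at 1 FPKM and a pseudocount of 0.1. Limma voom with sample quality weights, with and without median-of-ratios scaling, was added after seeing the data. Positions and 3′ untranslated regions come from GENCODE vM21 on mm10 and sequences from RefSeq. Tables and plots were made with pandas 2.3.3, matplotlib 3.10.9, numpy 2.4.6 and Python 3.11.15.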

Additional observations from a re-analysis of the deposited data

Results flagged for a closer look

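The livers were examined for single values far from the rest of their group, for 44 genes in both groups, which makes 88 groups of 5. Chance alone marks about 1 in 20 groups, and 7 were marked. Among the enzymes there was 1, Loxl2, which was 2.72 FPKM in AAV-miR-181d-5p liver 4, where the nearest liver of that group had 3.66 FPKM. In the same liver Fmod was 1.97 FPKM, with the nearest at 3.83 FPKM. In control liver 3, Col5a1 was 5.84 FPKM, with the nearest at 8.06 FPKM, and Col4a2 was 21.3 FPKM, with the nearest at 28.6 FPKM. Mfap4 was 7.15 FPKM in control liver 4, above the nearest at 4.93 FPKM. Bhlhe40 was 73.9 FPKM in control liver 5, above 50.8 FPKM, and Kdm6b was 4.13 FPKM in control liver 1, above 3.19 FPKM. Without AAV-miR-181d-5p liver 4, Loxl2 kept an unadjusted p under 0.05.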

How the results depend on the processing

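The count of genes past the adjusted threshold, 0 in limma, was 1 with the replicate block (Ccn2), 2 with voom and quality weights, and 8 when median-of-ratios scaling was added, P4ha1 among them with a log2 change of -0.64. Leaving out each liver gave 0 to 3 such genes, 3 without control liver 1 (Inhbb, Jdp2, Slc35d1), 1 without control liver 5 (AA986860) and 1 without AAV-miR-181d-5p liver 3 (Npy). The 1768 genes at an unadjusted p under 0.05 became 1071 without AAV-miR-181d-5p liver 4, in a range of 1071 to 2587, the highest without control liver 5. The 5 enzymes at that p ranged from 3, without AAV-miR-181d-5p liver 4 or control liver 4, to 6 without control liver 3. The log2 change of P4ha2 ran from -0.02 to 0.10 with a liver left out and turned below 0 without AAV-miR-181d-5p liver 5 (-0.0249) and without control liver 3 (-0.011). The cause was not tested. The other 8 tested enzymes kept their direction in every alternative that tested them. The labels give no pairing by number. Same-numbered livers had deviations correlated by -0.28 to 0.01, which cannot exclude a pairing. The replicate block moved the 1768 genes to 1220 and moved no enzyme across the adjusted threshold. With it Plod2 went over an unadjusted p of 0.05, leaving 4 enzymes under it. With FPKM rescaled to a common sum, 2 enzymes in place of 3 had groups without overlap, Loxl2 being lost. Depth limits P4ha3, at 34 reads in the AAV-miR-181d-5p group and 32 in the control group.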
